A study of Mus musculus with 5 samples.

Results

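The 49 genes described here are the marker genes of the S phase (28 genes) and of the G2 and M phases (21 genes) of the cell cycle, taken as a fixed list of symbols from the 32285 genes in the count tables, with each symbol matching 1 gene in all 5 libraries. The libraries were made from a wild-type line of mouse epiblast stem cells (EpiSCs), pluripotent cells derived from the postimplantation epiblast, and each was 1 droplet-based 3′ single-cell RNA-seq sample. All cultures were differentiated for 3 days in N2B27 medium with 1 µM CHIR99021, a GSK3 inhibitor that activates Wnt signaling, and 8 ng/ml BMP4. They differed in the FGF treatment: the FGFRi culture received 30 nM of the FGF receptor inhibitor AZD4547, and the other cultures received 0, 0.75, 3 or 12 ng/ml FGF2. The paper reports massive cell death at micromolar AZD4547. At 30 nM it reports a mild decrease in phosphorylation of ERK, a target of FGF signaling. Lower FGF signaling and other effects of the inhibitor, such as on survival, cannot be told apart in the FGFRi library. The question addressed was how the expression of the cell cycle genes varied with FGF signaling.

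Each condition was represented by 1 library from 1 line, so no difference between conditions has a replicate check and no test between conditions was possible. Intervals given below cover counting error only. Barcodes were kept if they held at least 2500 genes and no more than 10% mitochondrial counts, which was true of 10653 of 15375, between 1696 and 2725 per library, with medians of 24408 to 29662 UMIs (unique molecules counted) per cell. FGFRi was the shallowest library by this measure and 0 ng/ml the deepest. Only 7 barcode sequences occurred in more than 1 library. The pluripotency factor Pou5f1 was at 1.74 to 11.3 CPM (its counts per 1000000 counts of the library) in the 5 libraries and Nanog at 0.460 to 2.04 CPM. Of 5 epiblast markers looked at, 2 reached 10 CPM at 0 or 12 ng/ml. Their log2 ratios from 0 to 12 ng/ml were 0.40 and 1.60. The marker at 1.60 was under 10 CPM at 0 ng/ml, so it was counted through the library where it was higher. Markers under 10 CPM in both libraries were not compared. The streak gene T ranged from 0.753 CPM in FGFRi to 208 CPM at 12 ng/ml.

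Cells duplicate their DNA in S phase and divide in M phase, after a gap called G2. Many S phase genes encode the replication machinery and are transcribed by E2F factors once the retinoblastoma protein Rb1 has been inactivated by cyclin-dependent kinases. Many G2/M genes encode the mitotic kinases, the spindle and the kinetochore and are controlled through the CHR element, which is bound by the DREAM and MuvB-B-MYB-FOXM1 complexes. The epiblast is known for very rapid cell cycles, and during differentiation CDK inhibitors can stop cells before S phase.

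The promoters of the listed genes reflected this division. RefSeq promoter windows on GRCm38.p6, from 250 bases before to 50 bases after the transcription start site, were at hand for 21 of the 28 S genes and 19 of the 21 G2/M genes. Searched on both strands, at least 1 of the E2F-like motifs TTTGGCGC, TTTCGCGC and TTCCCGCC was present in 10 of 21 S genes, in 1 of 19 G2/M genes (Cdk1) and in 3.39% of all 27025 genes. The CHR motif TTTGAA was present in 3 of 21 S genes, 13 of 19 G2/M genes and 20.2% of all genes. In 12 of the 13 G2/M genes with a CHR match, a match began within 40 bases of the start site. The share of all genes with a match at such a position was not taken, so this count has no background. The motif CCAAT did not separate the lists, with 16 of 21 S genes, 15 of 19 G2/M genes and 41.1% of all genes. The first 2 E2F-like motifs can overlap on opposite strands, and a match of letters is not evidence of binding. The 120 bases before the start site of 3 S genes and 3 G2/M genes follow, 5′ to 3′ on the strand of the gene, with the E2F-like and CHR matches in capitals. Mcm6 holds 3 E2F-like matches, and Cdk1 holds CHR matches 71 and 15 bases before the start site, the nearer of which recurs at a similar distance in Cdc20 and Top2a.
Mcm6 (GRCm38.p6 chr1:128359706-128359825, minus strand): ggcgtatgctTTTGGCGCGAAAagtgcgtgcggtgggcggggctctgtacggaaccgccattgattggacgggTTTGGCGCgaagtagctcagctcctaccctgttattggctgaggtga
Rrm1 (GRCm38.p6 chr7:102441575-102441694, plus strand): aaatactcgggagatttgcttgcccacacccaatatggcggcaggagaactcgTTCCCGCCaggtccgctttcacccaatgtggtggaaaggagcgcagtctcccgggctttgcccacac
Uhrf1 (GRCm38.p6 chr17:56303217-56303336, plus strand): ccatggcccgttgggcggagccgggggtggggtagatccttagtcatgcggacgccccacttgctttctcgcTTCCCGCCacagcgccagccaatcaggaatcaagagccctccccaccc
Cdk1 (GRCm38.p6 chr10:69352913-69353032, minus strand): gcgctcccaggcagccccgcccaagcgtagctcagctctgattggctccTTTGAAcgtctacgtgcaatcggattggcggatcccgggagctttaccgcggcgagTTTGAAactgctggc
Cdc20 (GRCm38.p6 chr4:118437344-118437463, minus strand): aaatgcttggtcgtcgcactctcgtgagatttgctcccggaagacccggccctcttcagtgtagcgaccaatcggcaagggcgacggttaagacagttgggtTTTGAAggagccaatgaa
Top2a (GRCm38.p6 chr11:99024190-99024309, minus strand): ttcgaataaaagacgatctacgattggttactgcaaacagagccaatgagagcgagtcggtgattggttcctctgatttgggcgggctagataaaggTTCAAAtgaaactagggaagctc
The starts annotated by GENCODE lie up to 26 bases further upstream in Uhrf1, Cdk1 and Cdc20.

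Both lists were lowest under FGF receptor inhibition. Summed over the retained cells, the S genes made up 1715 CPM in FGFRi (95% exact Poisson interval 1703 to 1726), and 3241, 3782, 3908 and 3840.2 CPM in the libraries with 0, 0.75, 3 and 12 ng/ml FGF2. The G2/M genes made up 2235 CPM (2222 to 2249) in FGFRi and 4139.7, 4480.1, 4632 and 4452 CPM in the 4 FGF2 libraries in the same order. Thus the S sum was 1.89-fold (exact conditional interval 1.87 to 1.91) and the G2/M sum 1.85-fold (1.84 to 1.87) higher at 0 ng/ml than in FGFRi. From 0 to 12 ng/ml the S sum differed by 1.18-fold (1.18 to 1.19) and the G2/M sum by 1.08-fold (1.07 to 1.08), and from 3 to 12 ng/ml both sums were slightly lower, by ratios of 0.983 and 0.961. These comparisons share the 0 ng/ml library. Fewer cells in a phase and less of the transcripts per cell cannot be told apart in such sums.

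A gene was counted as higher or lower if it reached 10 CPM in either library and differed by at least 1.5-fold. Between FGFRi and 0 ng/ml, 47 of the 49 genes were higher at 0 ng/ml by this rule, against 9.5% of all 8445 genes measured, and none was lower. They comprised 26 of 28 S genes and 21 of 21 G2/M genes. Members under 10 CPM in FGFRi, such as Ung and Ccne2, could enter only through 0 ng/ml. Without the minimum level the count was also 47. The median log2 ratio was 0.93 for the S genes and 0.87 for the G2/M genes, where the median over all genes was 0.00. At least 2-fold was reached by 15 of the 49 genes and 2.62% of all genes. Between 0 and 12 ng/ml FGF2, 0 of the 49 genes passed the 1.5-fold rule in either direction, against 4.1% of all genes higher and 8.85% lower. In that comparison 28 of 28 S genes, 17 of 21 G2/M genes and 52.3% of all genes had a ratio above 1, with medians of 0.27 and 0.17 on the log2 scale and 0.01 over all genes. A ratio 25% or more above 1 was reached by 14 of the 49 genes and 11.6% of all genes. For single steps of FGF2, 0 of the 49 genes passed the 1.5-fold rule, against 5.39% of all genes from 0 to 0.75 ng/ml, 3.26% for the step up to 3 ng/ml and 0.946% for the last step, to 12 ng/ml.

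**Figure D1:**
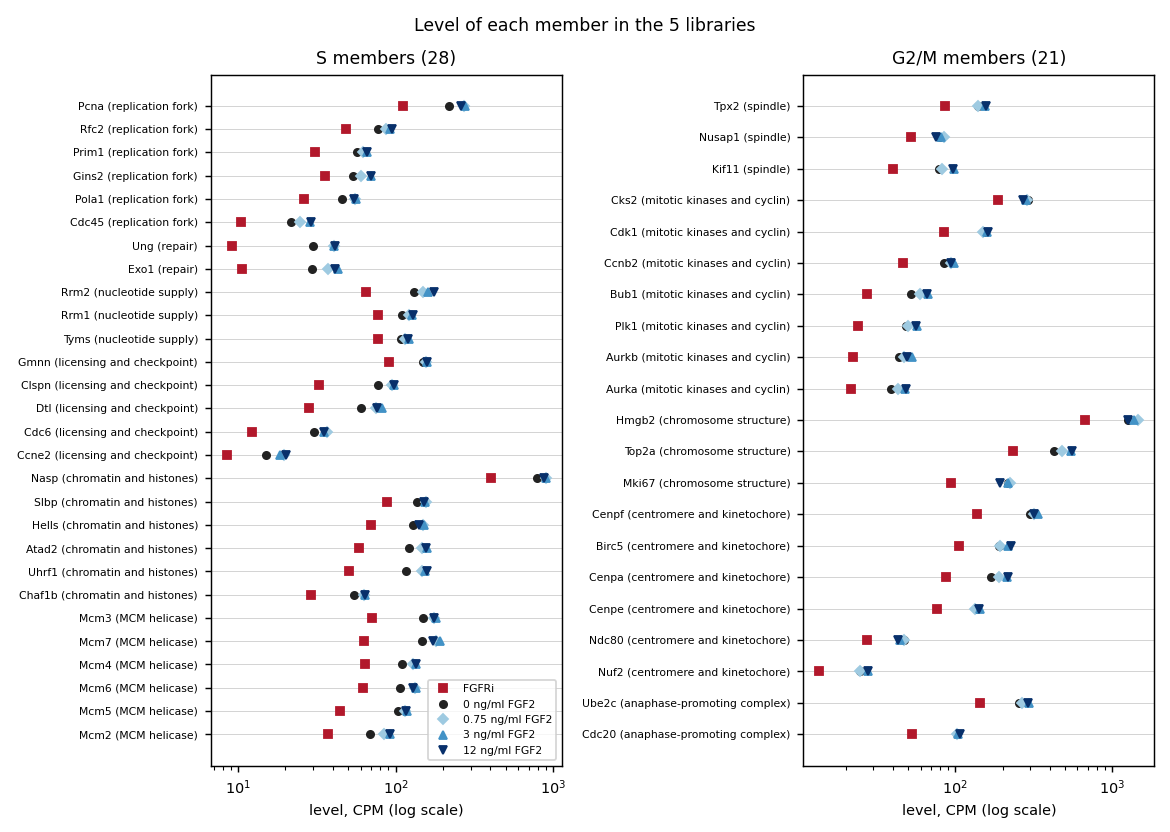
Level of each S gene (left) and G2/M gene (right) in the 5 libraries, in CPM on a log axis, with the genes grouped by role and 1 point per library. The FGFRi point lies to the left of the 4 FGF2 points for all 49 genes, and the FGF2 points of a gene lie close together.

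Among the S genes, the subunits of the MCM helicase, which unwinds DNA at the replication fork, were all higher at 0 ng/ml than in FGFRi. Mcm2 stood at 37.0 CPM in FGFRi and at 69.2, 84.1, 92.6 and 91.5 CPM at 0, 0.75, 3 and 12 ng/ml. Mcm6 stood at 62.6 CPM in FGFRi and at 107, 133, 134 and 129 CPM in the FGF2 libraries. The largest ratios between FGFRi and 0 ng/ml in this group belonged to Mcm7 (2.33) and Mcm5 (2.32) and the smallest to Mcm6 (1.70), with Mcm3 at 2.12, Mcm2 at 1.87 and Mcm4 at 1.72. From 0 to 12 ng/ml the ratios of the 6 subunits lay between 1.12 and 1.32.

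Genes of the replication fork followed the same order. Pcna, the sliding clamp of the DNA polymerases, was at 112 CPM in FGFRi and at 218, 270.5, 274 and 260.3 CPM with increasing FGF2. Cdc45, which activates the MCM helicase, was at 10.4 CPM in FGFRi and at 21.8, 24.8, 28.4 and 29.0 CPM. Prim1, a primase subunit, Pola1, the catalytic subunit of DNA polymerase alpha, Rfc2, a clamp loader subunit, and Gins2, a partner of Cdc45 in the active helicase, were 1.86-, 1.73-, 1.58- and 1.51-fold higher at 0 ng/ml than in FGFRi. Gins2 was therefore just inside the 1.5-fold rule.

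The 3 enzymes of nucleotide supply differed among themselves. Tyms, the thymidylate synthase, was at 77.4 CPM in FGFRi and at 108, 115, 122 and 120.5 CPM in the FGF2 libraries, a ratio of 1.40 (1.34 to 1.45) between FGFRi and 0 ng/ml. Rrm1, the large subunit of ribonucleotide reductase, was at 77.0, 111, 121, 128 and 129.5 CPM, a ratio of 1.44 (1.38 to 1.5). These were the 2 members that missed the 1.5-fold rule. Rrm2, the small subunit of the same enzyme, was at 65.0 CPM in FGFRi and at 130.3, 149, 161 and 175 CPM, a ratio of 2.01 (1.92 to 2.09), so its interval lay entirely above that of Rrm1.

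The largest ratios of all 49 genes were those of the repair genes and of Cdc6. Ung, the uracil DNA glycosylase, was at 9.12 CPM in FGFRi and at 30.0, 40.6, 40.7 and 41.1 CPM in the FGF2 libraries, 3.29-fold (2.96 to 3.67) higher at 0 ng/ml. Exo1, an exonuclease of mismatch repair and end resection, was 2.79-fold (2.52 to 3.08) higher at 0 ng/ml, and with a ratio of 1.41 (1.33 to 1.5) it also had the largest ratio of any member from 0 to 12 ng/ml. Cdc6, which loads the helicase onto origins, was at 12.3 CPM in FGFRi and at 30.3, 36.7, 35.0 and 35.3 CPM, 2.46-fold (2.24 to 2.70) higher at 0 ng/ml. All of these genes had low levels, so their intervals were wide.

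The other licensing and checkpoint genes spread widely. Gmnn, the geminin that blocks a further round of licensing, was at 90.4 CPM in FGFRi and at 149, 155, 159 and 159 CPM, the smallest ratio of any S gene from 0 to 12 ng/ml (1.06, 1.03 to 1.09). Ccne2, a cyclin that drives entry into S phase, was at 8.47, 15.1, 19.6, 18.5 and 20.0 CPM. Clspn, the checkpoint mediator claspin, and Dtl, which directs the destruction of licensing factors, were 2.40- and 2.12-fold higher at 0 ng/ml than in FGFRi.

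Of the chromatin genes, Uhrf1, which maintains DNA methylation after replication, was at 50.6 CPM in FGFRi and at 117, 146, 155 and 157 CPM in the FGF2 libraries. Slbp, which binds the stem loop of replication-dependent histone mRNAs, was at 87.6, 136, 155, 155 and 152 CPM. Their ratios between FGFRi and 0 ng/ml were 2.32 and 1.55, the extremes of the chromatin group. Between them lay Atad2, a chromatin ATPase (2.06), Nasp, a histone chaperone (1.95), Chaf1b, a subunit of the chromatin assembly factor (1.87), and Hells, a chromatin remodeler (1.84). Hells had the next smallest ratio after Gmnn from 0 to 12 ng/ml, 1.09.

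Among the G2/M genes, the mitotic kinases and cyclins were between 1.55- and 2.02-fold higher at 0 ng/ml than in FGFRi. Cdk1, the kinase that triggers mitosis, was at 84.2 CPM in FGFRi and at 154, 149.8, 159 and 162 CPM in the FGF2 libraries. Its partner cyclin Ccnb2 was at 46.5, 84.6, 94.2, 98.5 and 93.9 CPM. The 4 FGF2 libraries thus differed little for this complex. Plk1, a kinase of mitotic entry and spindle assembly, was at 24.0 CPM in FGFRi and at 48.6, 49.6, 56.8 and 55.9 CPM. Aurka, the Aurora kinase of the spindle poles, was at 21.7, 39.2, 42.9, 47.7 and 48.3 CPM. Aurkb, the Aurora kinase of the centromere, Bub1, a spindle checkpoint kinase, and Cks2, a small subunit of CDK complexes, had ratios of 1.96, 1.92 and 1.55 between FGFRi and 0 ng/ml.

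Genes of chromosome structure showed the widest spread of the G2/M list from 0 to 12 ng/ml. Top2a, the topoisomerase that untangles sister chromatids, was at 232 CPM in FGFRi and at 429, 478, 550.4 and 552 CPM in the FGF2 libraries, the largest ratio of the list from 0 to 12 ng/ml (1.29, 1.27 to 1.31). Mki67, the coat protein of mitotic chromosomes known as Ki-67, had the largest ratio of the list between FGFRi and 0 ng/ml (2.34, 2.26 to 2.42) with 93.2 and 218 CPM, but at 223, 216 and 194 CPM it had the smallest ratio from 0 to 12 ng/ml (0.89, 0.87 to 0.91). Top2a and Mki67 therefore lay on opposite sides of 1 between the FGF2 libraries, with intervals far apart. Hmgb2, a chromatin protein and the most abundant member, was at 676, 1261, 1472, 1383 and 1263 CPM, with a ratio of 1.00 (0.99 to 1.01) between 0 and 12 ng/ml, which lay just below 1 under 4 of 5 alternatives (TMM scaling, equal weight of cells, all barcodes, and without the deepest cells).

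The genes of the centromere and kinetochore, where chromosomes attach to the spindle, included Cenpa, the centromeric histone, at 87.3 CPM in FGFRi and 168, 189, 214 and 216 CPM in the FGF2 libraries. Cenpf was at 137, 299.6, 317, 336 and 319.6 CPM and had the next largest ratio of the G2/M list after Mki67 between FGFRi and 0 ng/ml (2.18). From 0 to 12 ng/ml Cenpa had a ratio of 1.28, close to that of Top2a, and Cenpf of 1.07. The kinetochore protein Nuf2, the motor Cenpe, Birc5 of the chromosomal passenger complex and the Nuf2 partner Ndc80 were 1.72- to 1.81-fold higher at 0 ng/ml than in FGFRi. Ndc80 was one of 4 genes that were lower at 12 than at 0 ng/ml, with a ratio of 0.92 (0.87 to 0.97), beside Mki67, Cks2 (0.93, 0.91 to 0.95) and Nusap1 (0.93, 0.89 to 0.97).

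The spindle genes spread between FGFRi and 0 ng/ml, with log2 ratios from 0.62 (Nusap1) to 0.99 (Kif11). Kif11, the motor that separates the spindle poles, was at 39.9 CPM in FGFRi and at 79.1, 81.6, 98.5 and 97.1 CPM in the FGF2 libraries. Nusap1, a microtubule-binding protein, had the smallest ratio of the list between FGFRi and 0 ng/ml (1.54, 1.46 to 1.61), followed by Cks2, and Tpx2, the activator of Aurka, had 1.61. Cdc20, the activator of the anaphase-promoting complex, was at 52.7, 102, 103, 104 and 107 CPM, and Ube2c, the ubiquitin-conjugating enzyme of that complex, had a ratio of 1.77. Several members, among them Hmgb2, Cks2 and Tyms, have processed copies elsewhere in the genome to which short reads may be assigned, so their absolute levels are less certain than their ratios.

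**Figure D2:**
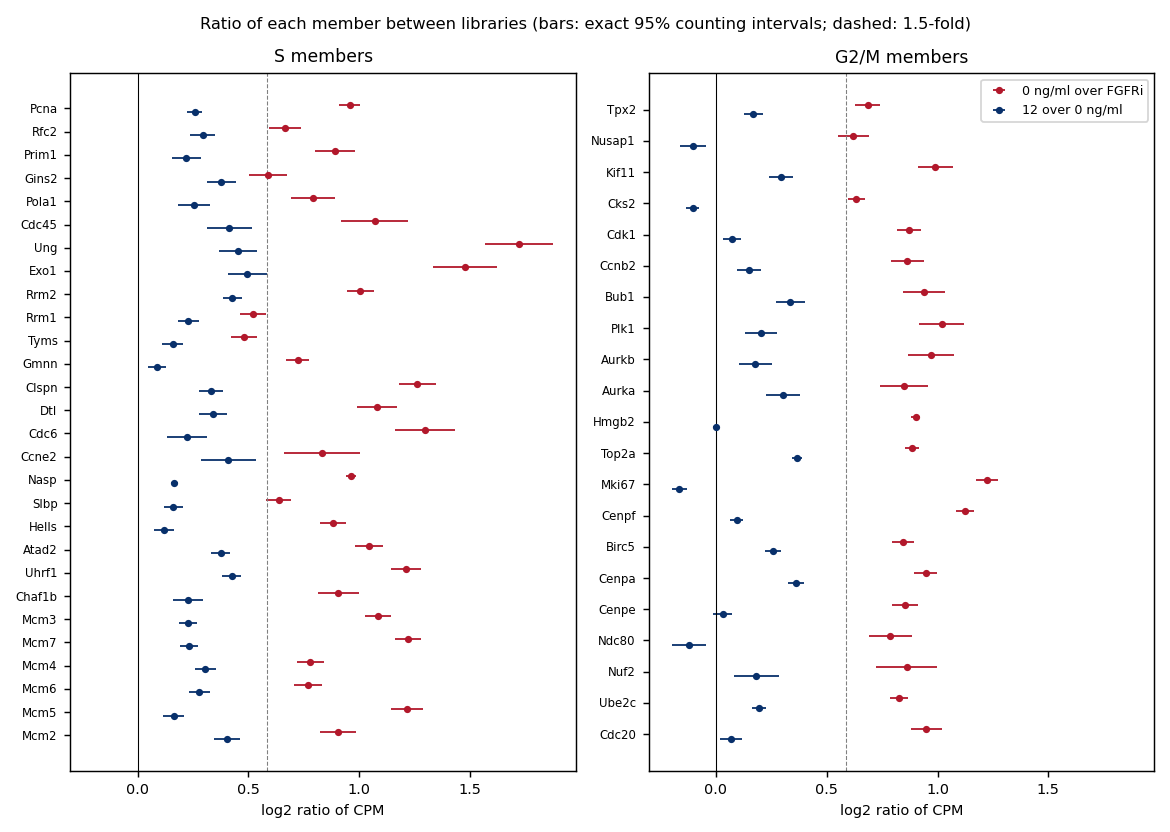
Log2 ratio of CPM for each S gene (left) and G2/M gene (right), at 0 ng/ml over FGFRi (red) and at 12 over 0 ng/ml (blue), with exact 95% counting intervals, a solid line at equal levels and a dashed line at 1.5-fold. The red points of all genes but Tyms and Rrm1 lie beyond the dashed line and no blue point does, while the blue points of Mki67, Ndc80, Cks2 and Nusap1 lie below 0.

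Further genes of the same processes lay mostly in the same direction. These lists were chosen with earlier results of these data known, so they are a description and no independent check. Of 41 other replication genes measured, 36 were higher and 1 lower at 0 ng/ml than in FGFRi by the 1.5-fold rule (9.5% and 12.4% of all genes), with a median log2 ratio of 0.87. The largest was Mcm10, which binds the helicase, at 13.2 CPM in FGFRi and 37.3 CPM at 0 ng/ml. The exception was E2f8, an atypical E2F that acts as a repressor, which was lower with each step up to 3 ng/ml (44.5, 27.8, 17.0 and 12.7 CPM) and at 14.9 CPM at 12 ng/ml. From 0 to 12 ng/ml, E2f8 was also the 1 of 43 other replication genes that was lower (8.85% of all genes), and 2 were higher, a share near the 4.1% of all genes: Tk1, the thymidine kinase (31.0 and 51.0 CPM), and Mcm10 (37.3 and 59.2 CPM). Of 54 other mitotic genes, 36 were higher and 0 lower at 0 ng/ml than in FGFRi, including Ccnb1 (58.7 and 114 CPM) and Fbxo5, an inhibitor of the anaphase-promoting complex (24.2 and 61.4 CPM), and none passed the rule from 0 to 12 ng/ml.

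Of the regulators, the activator E2f1 was at 6.69 CPM in FGFRi and at 13.5, 16.7, 17.4 and 18.7 CPM in the FGF2 libraries, while Rb1 was at 14.5 CPM in FGFRi and at 5.53, 5.31, 3.84 and 3.46 CPM. Of the 10 E2F and Rb family genes measured between FGFRi and 0 ng/ml, 5 were higher and 1, Rb1, was lower, against 9.5% and 12.4% of all genes, so that the single lower gene is near the background. The higher genes were E2f1, E2f5, E2f7, Rbl1 and Tfdp2, with ratios of 1.5 to 2.02. E2f1 and Rb1, for example, reached 10 CPM only in the library where each was higher, so they entered the count through it. Mybl2, the B-MYB subunit that drives G2/M genes, was at 11.7 CPM in FGFRi and at 28.4, 25.2, 24.4 and 24.5 CPM, and Foxm1 was at 11.4 and 17.5 CPM in FGFRi and at 0 ng/ml. The other 6 of 8 genes of that list measured, which include the MuvB core and the CCAAT-binding NF-Y subunits, did not pass the rule, so 2 of 8 were higher where 9.5% of all genes were. Among 8 G1 cyclins and kinases, 3 were higher at 0 ng/ml than in FGFRi, beside the same 9.5%: Ccnd1 (29.4 and 102 CPM), Ccne1 (10.7 and 24.9 CPM) and Cdc25a (39.2 and 59.0 CPM).

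The genes of the CDK inhibitors, proteins that block the kinases upstream of E2F, had the opposite order. Of 6 measured, 5 were lower at 0 ng/ml than in FGFRi, against 12.4% of all genes. Cdkn2a was at 354 CPM in FGFRi and at 57.5, 9.11, 7.27 and 9.0 CPM in the FGF2 libraries, and Cdkn2b at 177 CPM and at 42.3, 6.13, 2.97 and 4.25 CPM. Cdkn2a also encodes a protein that is not a CDK inhibitor, and counts per gene do not separate the transcripts of its products. Cdkn1a, which encodes p21, was at 330.4 CPM in FGFRi and at 117, 112, 119 and 123 CPM. Cdkn1b and Cdkn1c were at 46.8 and 32.0 CPM in FGFRi and at 28.7 and 11.7 CPM at 0 ng/ml, whereas Cdkn2d (20.0 and 17.0 CPM) did not pass the rule and Cdkn2c (1.3 and 1.0 CPM) was under its limit of 10 CPM. Cdkn1a therefore differed between FGFRi and the other 4 libraries, which lay within 112 to 123 CPM, while Cdkn2a and Cdkn2b also differed between 0 and 0.75 ng/ml.

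To see how the sums were distributed over cells, every cell was thinned to 10000 UMIs, which left 10559 cells. The median S sum was 13 UMIs per cell in FGFRi, 32 without FGF2 and 37 to 38 with 0.75 to 12 ng/ml. The median G2/M sum was 7 UMIs in FGFRi and 35 to 37 in the FGF2 libraries. In FGFRi the G2/M sums were very unevenly distributed, with 25% of cells at 3 or fewer UMIs, 25% at 35 or more and a 95th percentile of 87 UMIs, the last close to the 90 to 91.3 UMIs of the FGF2 libraries. Many FGFRi cells thus had few G2/M transcripts, while at the 95th percentile the sum was close to that with FGF2. At the 90th percentile the G2/M sum was 61 UMIs in FGFRi and 76 to 81 in the FGF2 libraries. The 95th percentile of the S sum was 51 UMIs in FGFRi and 64 to 66 in the FGF2 libraries.

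**Figure D3:**
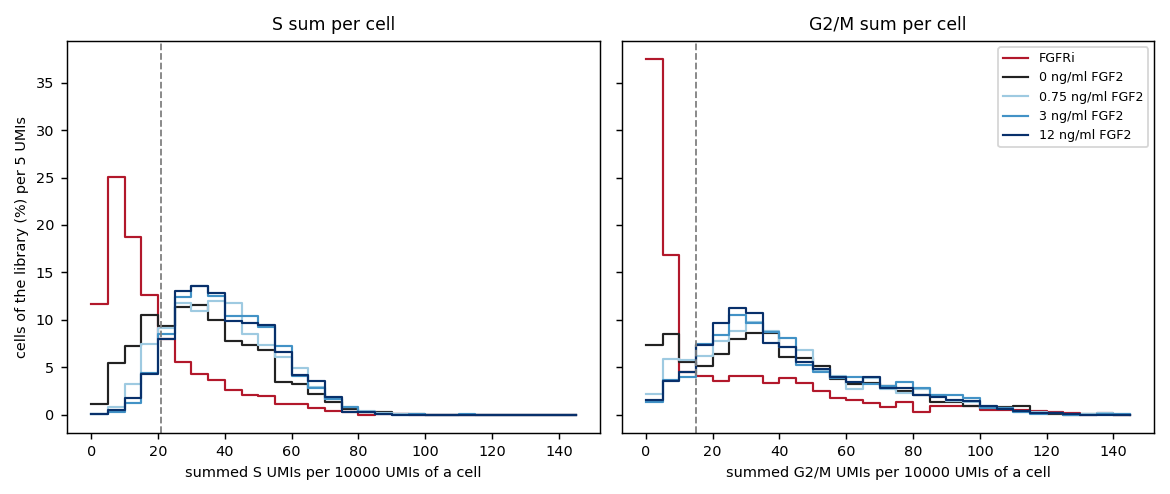
Distribution of the summed S UMIs (left) and G2/M UMIs (right) per cell thinned to 10000 UMIs, as the percentage of the cells of each library in bins of 5 UMIs, with 1 line per library and the cut between low and high cells dashed. Most FGFRi cells lie left of the cut, with a tail that runs under the FGF2 curves.

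Cells were divided by the cut that best separated the pooled values, at 21 UMIs per 10000 for the S sum and 15 for the G2/M sum. A cut of this kind marks a range of a continuous score and no cell type or phase of the cycle. Within 2 UMIs of the cuts lay 919 (8.70%) and 550 (5.21%) of the cells. G2/M-high cells were 41.1% (exact binomial interval 38.7 to 43.5) of the FGFRi cells and 78.6%, 86.2%, 91.0% and 90.4% of those in the FGF2 libraries in order of dose. S-high cells were 30.4% (28.2 to 32.7) in FGFRi and 73.8%, 86.7%, 92.7% and 92.0%. The difference in G2/M-high cells from 0 to 12 ng/ml depended on the cut: it was 11.8 percentage points (9.48 to 14.1) here, 7.26 with a cut of 23 UMIs and 1.47 with a cut at the pooled median of 33 UMIs. Without thinning the G2/M-high shares were 41.3%, 79.0%, 86.2%, 90.6% and 90.8%, and the S-high shares 29.7%, 74.1%, 87.3%, 93.9% and 93.3%. From 3 to 12 ng/ml the shares differed by -0.687 percentage points (-2.26 to 0.903) for S and -0.565 (-2.29 to 1.17) for G2/M, within counting error.

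Cells low in both sums made up 52.3% (49.9 to 54.7) of FGFRi and 13.0%, 4.69%, 1.42% and 2.0% of the FGF2 libraries in order of dose. Cells high in both made up 23.8% of FGFRi and 65.4%, 77.6%, 85.1% and 84.4% of the FGF2 libraries. The S-high and G2/M-high shares thus overlap and are not shares of cells in a phase. Depth moved with the classes. In FGFRi the median was 24582 UMIs in cells low in both, 23953 in cells high in both, 21118 in cells high in S only and 28237 in cells high in G2/M only, and without FGF2 these medians were 23130, 30426, 24398 and 34752 UMIs. Among cells of 20000 to 30000 UMIs the G2/M-high share was 46.8% in FGFRi and 78.5%, 85.5%, 88.7% and 88.2% in the FGF2 libraries. The shares in FGFRi and without FGF2 were 36.2% and 56.0% among cells of 10000 to 20000 UMIs, 39.3% and 86.3% at 30000 to 40000 UMIs and 38.6% and 85.0% at 40000 or more, so FGFRi was lower at every depth and by the least in the shallowest cells.

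Within the G2/M-high cells the G2/M genes summed to 4792 CPM in FGFRi and 4911, 4916, 4917 and 4753 CPM in the FGF2 libraries, and 0 of 21 genes were 1.5-fold higher at 0 ng/ml than in FGFRi in these cells (3.27% of all genes). In the remaining cells they summed to 429 CPM in FGFRi and 744, 957, 983 and 1007 CPM. Of the 13 genes that reached 10 CPM there in either library, 11 were higher at 0 ng/ml (6.36% of all genes). Cdk1, Mki67, Cenpf, Cdc20 and Cenpe reached 10 CPM in these cells at 0 ng/ml only, so that they entered the count through the library where they were higher. The S genes summed to 3525 CPM within S-high cells in FGFRi and to 3872, 4063, 4071 and 4025 CPM in the FGF2 libraries, with 1 of 28 genes 1.5-fold higher at 0 ng/ml than in FGFRi (3.03% of all genes). In S-low cells they summed to 1010.5 CPM in FGFRi and 1458 CPM at 0 ng/ml, and 8 of 23 genes that reached 10 CPM were higher (5.67% of all genes). The ratio of the sums between these libraries was thus larger in the low cells (1.73 for G2/M and 1.44 for S) than in the high cells (1.02 and 1.10). Since the classes were cut on these same sums, the values describe the classes and carry no test.

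The relation between the lists was examined by taking, in each library, the 25% of cells with the highest and the 25% with the lowest sum, leaving each gene out of its own list. Over the 5 libraries, 23 of 28 S genes differed at least 2-fold along the S sum, with ratios of 1.61 (Tyms) to 7.80 (Cdc6) over all 28. All 21 G2/M genes differed at least 2-fold along the G2/M sum, with ratios of 2.36 (Ccnb2) to 48.6 (Nusap1). At least 2-fold was reached by 2.21% of 11359 genes along the S sum and 1.95% along the G2/M sum. All 28 S genes also differed more along the S sum than along the G2/M sum, for which no share of all genes was taken. Since the cells were ranked by other members of the same lists, these ratios describe how the genes varied with their list and carry no test. They were also taken over all libraries together, and the single libraries differed, as given below. Along the G2/M sum, Hmgb2 (2.37) and Ccnb2 (2.36) had the smallest ratios, and Plk1 (24.1), Ube2c (21.3) and Cenpf (18.5) followed Nusap1.

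Across the lists, the libraries had opposite patterns. In FGFRi, all 25 S genes with enough counts were higher in the cells with the highest G2/M sum, with a median ratio of 2.64 (1.12 to 12.1 over genes, 52.2% of all genes being higher), and all 18 G2/M genes with enough counts were higher in the cells with the highest S sum, with a median of 10.2 (2.38 to 21.7, 50.6% of all genes being higher). At 12 ng/ml, 27 of 28 S genes were lower in the cells with the highest G2/M sum, with a median of 0.629 and 44.4% of all genes lower, and 21 of 21 G2/M genes were lower in the cells with the highest S sum, with a median of 0.458 and 52.6% of all genes lower. The 0.75 and 3 ng/ml libraries resembled 12 ng/ml, with medians of 0.688 and 0.629 for the S genes, and 0 ng/ml lay between, with 16 of 28 S genes and 51.4% of all genes above 1.

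Single genes showed the same contrast. Rrm2 was 12.1-fold higher along the G2/M sum in FGFRi and had ratios of 1.67, 0.861, 0.648 and 0.645 in the FGF2 libraries in order of dose. Ung, a gene of the start of S phase, was at a ratio of 2.50 in FGFRi and at 0.299, 0.148, 0.118 and 0.145 in the FGF2 libraries. Top2a was 21.7-fold higher along the S sum in FGFRi and had ratios of 1.32, 0.645, 0.496 and 0.483 in the FGF2 libraries. These libraries also differed in the cells low in both sums, which were 52.3% of FGFRi and 1.42% to 13.0% of the others, and the part of this in the ratios was not tested.

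**Figure D4:**
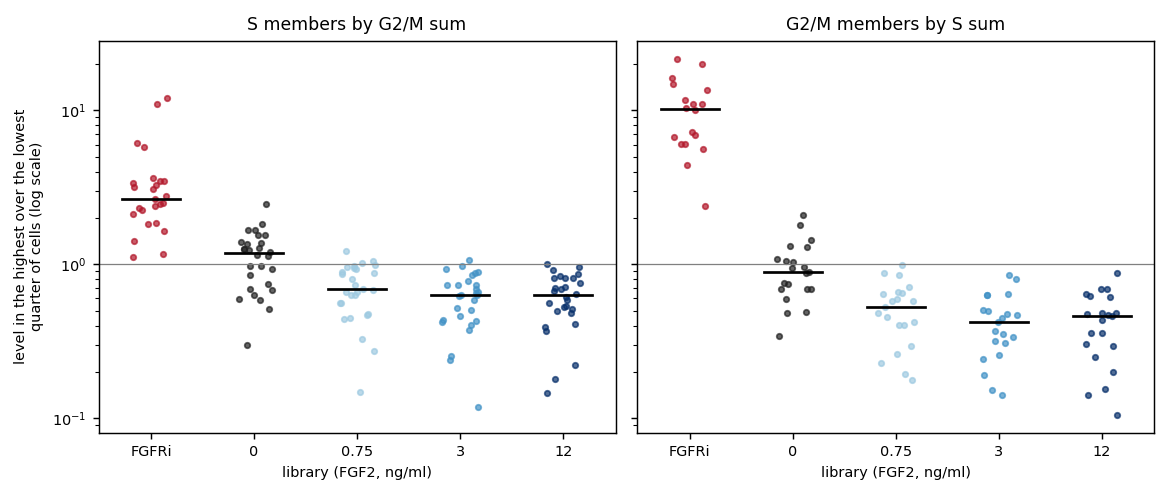
Ratio of the level in the 25% of cells with the highest over the 25% with the lowest sum of the other list, on a log axis, for each S gene along the G2/M sum (left) and each G2/M gene along the S sum (right), with 1 point per gene and the median as a bar. All FGFRi points lie above 1, and all but a few points at 0.75, 3 and 12 ng/ml lie below 1.

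The shares were compared between cell states defined by 1 or more UMIs, in the thinned cells, of Tbx6, a factor of paraxial mesoderm, and in the remaining cells of Cdh1 (E-cadherin, epithelial) and Cdh2 (N-cadherin, typical of mesoderm). Counts from free RNA can contribute to such calls. Cdh1 UMIs were found in 4.0% to 11.3% of Tbx6+ cells and in 31.5% to 49.3% of the other cells of the 4 FGF2 libraries, with medians of 26293 to 32264 and 27634 to 29674 UMIs. In the FGF2 libraries, Cdh1+ Cdh2- cells were less often high than Cdh1- Cdh2+ cells. At 0 ng/ml, 68.9% (65.3 to 72.4) of the former and 86.3% (82.3 to 89.7) of the latter were G2/M-high, and 60.9% (57.1 to 64.6) and 89.5% (85.8 to 92.5) were S-high. At 12 ng/ml the S-high shares were 80.3% and 94.2% and the G2/M-high shares 86.1% and 91.2%.

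In FGFRi the Cdh1+ Cdh2- and Cdh1- Cdh2+ cells had G2/M-high shares of 39.9% and 39.6%, and S-high shares of 24.1% (20.6 to 28) and 34.4% (30.6 to 38.3). Cells positive for both cadherins were G2/M-high in 22.0% (15.2 to 30.0) and cells negative for both in 51.3% (46.2 to 56.4). Every state thus had a lower share in FGFRi than the same state at 0 ng/ml, and the double-positive cells the lowest. Thinning moved FGFRi cells between states. With all UMIs the double-positive cells numbered 344 in place of 132, with a G2/M-high share of 27.0%. The double-negative cells numbered 101 in place of 386, with a share of 48.5%. Tbx6+ cells had the highest shares at 0 ng/ml, with 96.0% (88.8 to 99.2) in both classes, and 90.05% to 94.2% G2/M-high cells at 0.75 to 12 ng/ml. FGFRi held only 6 Tbx6+ cells, which were left out. The states also differed in depth. At 0 ng/ml the medians were 28640 and 29892 UMIs in the Cdh1+ Cdh2- and Cdh1- Cdh2+ cells, and 34899 in the double-positive cells. In FGFRi the double-positive and double-negative cells had medians of 25662.5 and 25165 UMIs. With states called from all UMIs these FGFRi medians were 31262 and 18048 UMIs, so depth went with the state there.

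**Figure D5:**
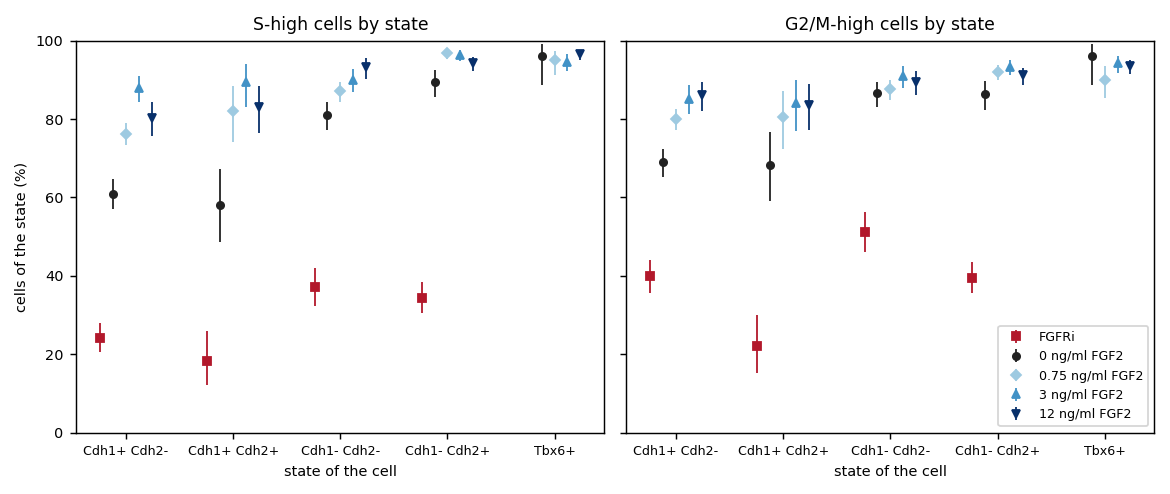
Percentage of S-high (left) and G2/M-high cells (right) by state of the cell and library, with exact 95% binomial intervals and states of fewer than 50 cells left out. The FGFRi shares lie below those of the FGF2 libraries in every state shown, and within each FGF2 library the states with Cdh1 UMIs have the lowest shares.

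Of the CDK inhibitors, Cdkn2a, Cdkn1a and Cdkn2b were unevenly distributed between these cells. The list was not uniform in this. Over the 5 libraries, Cdkn2d, Cdkn1b and Cdkn2c had ratios of 2.58, 1.48 and 1.39 along the G2/M sum, that of Cdkn2c on few counts. For Cdkn1c, Cdkn1a, Cdkn2b and Cdkn2a the ratios were 0.711, 0.449, 0.243 and 0.228. In FGFRi, cells with a Cdkn2a UMI were G2/M-high in 26.8% (24.2 to 29.6) and cells without in 67.4% (63.4 to 71.1), with median depths of 26150 and 22539 UMIs. For Cdkn1a the shares were 26.2% and 64.1%, and for Cdkn2b 24.0% and 62.8%. At 0 ng/ml the G2/M-high shares were 52.0% with and 84.6% without a Cdkn2a UMI, and at 12 ng/ml 62.5% (51.0 to 73.1, 80 cells) and 91.4%. Cells with a Cdkn1a UMI differed less at 12 ng/ml, with 87.9% and 92.9%. In Tbx6+ cells Cdkn2a UMIs were found in 0 of 75 cells at 0 ng/ml. This allows a share of cells with a UMI of up to 4% by a floor of 3 cells, and of up to 4.80% by the exact binomial interval. Among the other cells of that library the share was 19.1%. At 0.75, 3 and 12 ng/ml the shares were 1.81%, 0.645% and 1.29% of Tbx6+ cells and 4.71%, 2.67% and 4.32% of the other cells. Of all cells, 18.2% had a Cdkn2a UMI at 0 ng/ml and 64.8% in FGFRi. For Ccnd1, cells with a UMI were S-high in 44.2% in FGFRi and cells without in 27.2%, and the shares at 0 ng/ml were 86.4% and 63.2%. The G2/M-high shares with and without a Ccnd1 UMI were 44.9% (39.3 to 50.6) and 40.2% (37.6 to 42.9) in FGFRi, with overlapping intervals. At 0, 0.75 and 3 ng/ml this share was higher with a UMI (86.01% and 72.4% at 0 ng/ml). At 12 ng/ml the order was the opposite, with 89.98% and 91.4%, and the intervals overlapped.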

How the data were processed

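Per the labels and methods, cells were profiled with the 10x Genomics 3′ v3.1 kit, and the authors aligned reads to mm10 and counted UMIs with Cell Ranger (version 5.0.1 per the file headers, while the methods name another version). The deposited values are raw UMI counts per gene and barcode, without normalization. Barcodes with at least 2500 genes and at most 10% mitochondrial UMIs were kept, which left 47824660 to 81538748 UMIs per library. No doublet caller was run, so doublets remain, and leaving out the 5% of cells with the most UMIs was an alternative.

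Counts were summed per library and given as CPM with exact 95% Poisson intervals, ratios with exact conditional intervals and shares with exact Clopper-Pearson intervals. UMIs of a cell are not independent replicates of a condition, and with 1 library per condition no test was made. Genes were called at 10 CPM or more in either library and a ratio of 1.5 or more. Cells were thinned without replacement to 10000 UMIs (seed 0), leaving out 94 shallower cells (39 in FGFRi and 9 to 19 in the others). Cuts maximized the between-class variance of log2(sum + 1), with libraries weighted equally. Ratios between end groups of cells needed 10 or more UMIs in the lower one. Scripts used Python 3.11.15, scipy 1.17.1 and edgeR 4.0.16 (TMM factors only) and were tested on simulated data. Positions came from GENCODE vM21 and promoters from RefSeq, both on GRCm38.

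Genes named were a fixed set of members from each role, all members past 1.5-fold, the extremes of each list, and regulators past 1.5-fold. The members and lists were chosen with earlier results of these data known.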

Additional observations from a re-analysis of the deposited data

Results flagged for a closer look

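The S and G2/M lists went together across cells in FGFRi and apart in the libraries with 0.75, 3 and 12 ng/ml FGF2: the median ratio of the S genes between cells of highest and lowest G2/M sum was 2.64 in FGFRi and 0.688, 0.629 and 0.629 in the other 3, and this difference was not tested. The share of G2/M-high cells was 0.323 percentage points lower in Cdh1- Cdh2+ than in Cdh1+ Cdh2- cells in FGFRi (-0.323, interval -6.13 to 5.48), against 5.02 to 17.4 points higher in the 4 FGF2 libraries. The FGFRi value was within counting error, and the difference between the libraries was not tested.

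The 711 to 1104 barcodes per library removed by the filters, with medians of 1411 to 1778 UMIs, also held members. Their S sum was lowest in FGFRi at 1406 CPM and highest at 3 ng/ml at 2892 CPM, and their G2/M sum ran from 1383 CPM in FGFRi to 3041 CPM at 3 ng/ml.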

How the results depend on the processing

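No summed level, share or state difference beyond counting error changed direction under any alternative run, nor did any single member past 1.5-fold. For members under 1.5-fold a change of direction was not scored. The log2 ratios of the summed levels moved beyond counting error under some. With TMM scaling they were 0.93 (S) and 0.90 (G2/M) from FGFRi to 0 ng/ml and 0.23 and 0.0902 from 0 to 12 ng/ml. With every cell given the same weight the S value was 0.88 from FGFRi to 0 ng/ml and the G2/M values were 0.81 and 0.0947. At most 5% mitochondrial UMIs gave 0.86 for G2/M from FGFRi to 0 ng/ml. Without the 5% of cells with the most UMIs the G2/M values were 0.85 and 0.0929. Without the most abundant gene of each list (Nasp and Hmgb2), an alternative chosen after seeing the data, the S values were 0.90 and 0.27, and G2/M from 0 to 12 ng/ml was 0.15. A ratio of at least 2 left 15 of 47 genes from FGFRi to 0 ng/ml, and one 25% above 1 gave 14 from 0 to 12 ng/ml. With the cut at the pooled median, the difference in high cells from FGFRi to 0 ng/ml was 32.6 points for S and 26.6 for G2/M, and 1.47 for G2/M from 0 to 12 ng/ml. With 1.5 times the cut it was 34.1 for S from FGFRi to 0 ng/ml and 7.26 for G2/M from 0 to 12 ng/ml. In cells of 20000 to 30000 UMIs, also chosen after seeing the data, it was 31.8 for G2/M from FGFRi to 0 ng/ml and 15.4 for S from 0 to 12 ng/ml. The cause of these shifts was not tested. For single members, 458 of 490 values stayed within counting error and 32 moved, none with a change of direction among those past 1.5-fold. In FGFRi the difference in G2/M-high share between cadherin states, -0.323 points, was between 0.532 and 3.32 with other state calls or another seed, all within its counting interval. No paired analysis was possible because each condition had 1 library, and leaving out a replicate was not possible either.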
